A study of Mus musculus with 18 samples.

Results

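The genes described here serve the unfolded protein response and protein folding in the endoplasmic reticulum (ER), in mouse dendritic cells stimulated with lipopolysaccharide (LPS). They were listed by name: 35 genes for stress sensors, their main transcription factor, feedback factors, ER chaperones, disulfide-forming enzymes, ER-associated degradation (ERAD) and the channel that admits new proteins. Of these, 34 of the 12394 genes read by a probe set of their own on the array were found. Sec61g had no such probe set and was skipped, and Ero1l appears under its present symbol, Ero1a. Each gene was read from its brightest probe set.

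The study's title asks what LPS does to gene expression where activation of the transcription factor NFAT is allowed or inhibited. Marrow of C57BL/6 mice aged 6 to 8 weeks was cultured for 7 to 10 days with 10% supernatant of B16 tumour cells transduced with GM-CSF, and cells were used when over 90% carried CD11c, a dendritic cell marker. There were 3 conditions: wild type cells, wild type cells given the calcium chelator EGTA at 2 mM, and cells of Cd14-/- C57BL/6 mice, which lack the LPS co-receptor Cd14. In each condition 1 array was made without LPS and 1 after each of 2, 4, 6, 12 and 24 h of smooth LPS, 18 arrays in all. The LPS dose was 1 µg/ml in both wild type conditions and is not stated for the Cd14-/- cells. Unstimulated cells were harvested 24 h after plating, a time that the 24 h LPS array alone shares. For the unstimulated EGTA array, the title mentions EGTA but the protocol describes nothing beyond plating.

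When unfolded proteins gather in the ER, 3 membrane sensors respond. Ern1 (IRE1 alpha) splices the mRNA of Xbp1 into a form that encodes an active transcription factor, Atf6 is cut to release another, and Eif2ak3 (PERK) slows translation and raises Atf4. Their targets include chaperones, folding enzymes and ERAD factors like those listed. The list also holds feedback factors and genes of the channel that admits new proteins. Dendritic cells are known to depend on Xbp1, and the ER is the cell's calcium store, where several of these chaperones bind calcium.

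Levels are log2 values of the deposited array intensities after an added 16 and quantile normalisation. Since each condition and time had a single array, conditions were set against each other on the 15 LPS arrays, with time as a block. The 5 times thus served as replicates, and the p-values measure the scatter of the differences between times, part of which may be technical. Changes are given ± the standard error of the fit, with limma p-values adjusted by the Benjamini-Hochberg method over 7392 tested genes at a threshold of 0.05. All 34 genes passed the filter for testing, which kept genes above their array's median on at least 2 arrays.

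Across the whole array set, Cd14 itself lay at 12.79 to 13.28 in wild type cells under LPS and at 4.28 to 5.83 on the 6 Cd14-/- arrays. The latter is below the array median of 6.75 and near 4, the level that the added constant gives to a signal of 0. The difference therefore has only a bound: with the array median as the limit, Cd14 was at least 6.32 lower (log2). The limma adjusted p of 1.63e-10 belongs to the fit of the levels themselves and not to this bound. With EGTA Cd14 lay at 13.02, 12.78, 12.71, 12.49 and 12.96 from 2 to 24 h. Wild type cells had 13.23, 13.06, 13.00, 12.79 and 13.28, more at each time. The fitted difference was -0.28 ± 0.24 (limma adjusted p = 0.493). Its standard error is that of the shared fit, which includes the dim Cd14-/- arrays. Unscaled trimmed mean intensities ran from 330.5 to 472.3. The dendritic cell markers Itgax, Zbtb46, Dpp4, Ciita, H2-Ab1 and Cd74 lay above the array median on 18 of 18 arrays. Kmo did so on 12, Cd209a on 7 and Flt3 on 1, and none of 7 measured T and NK cell markers did on any. All 10 measured macrophage markers were above it on 18 of 18 arrays. On single LPS arrays, 5 to 11 of 11 granulocyte markers were above it in wild type and EGTA cells, and 7 to 11 in Cd14-/- cells. Among all tested genes, 7.05% were higher and 5.93% lower with EGTA than in wild type cells under LPS. In Cd14-/- cells 16.2% were higher and 12.1% lower. Of 8 tested dendritic cell markers 1 was higher with EGTA, Ciita (0.31), and 5 in Cd14-/- cells, Ciita (0.45), H2-Ab1 (0.47), Cd74 (0.16), Kmo (0.55) and Itgax (0.29), with 0 lower in both. Their summed linear level ran from 18790 to 26200 in wild type, 21940 to 25180 with EGTA and 23450 to 29940 in Cd14-/- arrays. Macrophage markers differed between conditions: 3 of 10 were higher with EGTA and 7 of 10 lower in Cd14-/- cells, their summed linear level running from 29880 to 36000 in wild type, 30550 to 36910 with EGTA and 20810 to 32430 in Cd14-/- arrays. Of 11 granulocyte markers, 0 were called with EGTA (2 at an unadjusted p under 0.05), and in Cd14-/- cells 5 were higher and 1 lower. Their summed level ran from 15830 to 35470 in wild type, 15170 to 39680 with EGTA and 22630 to 36590 in Cd14-/- arrays. Of 4 tested B and plasma cell markers, 1 was higher with EGTA, Prdm1 (0.57 ± 0.16, adjusted p = 0.038), with a summed level of 5245 to 7803 in wild type, 5966 to 9870 with EGTA and 4635 to 6728 in Cd14-/- arrays. Sdc1, Prdm1, Ighm and Irf4 lay above the array median on 18 of 18 arrays. Cd79a, Cd79b, Ms4a1, Pax5, Jchain and Tnfrsf17 did so on 0 arrays. Of 4 tested mast cell and basophil markers, 2 were lower with EGTA, Mcpt8 (-0.68) and Cpa3 (-0.50), and 2 in Cd14-/- cells, Cpa3 (-0.47) and Kit (-0.36), while Fcer1a, Ms4a2, Tpsb2 and Cma1 lay above the array median on 0 arrays. Their summed level ran from 751.3 to 1105 in wild type, 649.1 to 992.4 with EGTA and 598.1 to 799.2 in Cd14-/- arrays. Marker levels also moved with LPS. At 24 h against no LPS, over all 3 conditions, 10 of 11 granulocyte markers fell and 1 rose (median -2.08). Of 10 macrophage markers 6 fell and 2 rose (median -0.77), and of 8 dendritic cell markers 4 fell and 0 rose (median -0.31). Of all genes tested there, 25.4% rose and 25.0% fell. The part of these shifts, between conditions or with LPS, in the results on ER genes was not tested. In whole cultures, a change in the mix of cells and a change in RNA per cell cannot be told apart. RNA integrity numbers were 8.8 and 8.7 for the EGTA arrays at 12 and 24 h and 9.3 to 10 elsewhere. The unstimulated EGTA array stood apart at its dim end, with a 1st percentile of 3.63 intensity units where the other arrays reached at most 0.939.

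Without LPS, with 1 array each, the conditions were described and not tested against each other. The median difference from wild type over the 34 genes was 0.00 (log2) with EGTA and -0.04 in Cd14-/- cells, beside 0.01 and -0.01 over all genes. A difference of 1.5-fold was reached with EGTA upwards by 1 ER gene, Hyou1 (0.99), and downwards by 1, Ern1 (-1.80), where 11.1% and 8.90% of all 12394 genes went past it in the same directions. In Cd14-/- cells 0 went past it upwards and 1, Pdia4 (-0.61), downwards, beside 5.48% and 5.49% of all genes.

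LPS itself moved the list both ways. Over all 3 conditions and 5 times, with the condition as a block and 7517 genes tested on 18 arrays, 7 ER genes rose and 15 fell against no LPS, where 26.5% of all genes rose and 33.7% fell, so that their shares lay near the background. The split depended on the scaling: 11 rose and 4 fell under median centring, and 2 rose and 17 fell without further scaling, which moved the median of all genes from -0.05 to 0.09 and to -0.32. In wild type cells the median LPS minus no LPS difference of the ER genes was -0.13, -0.47, -0.49, -0.26 and -0.15 from 2 to 24 h. With EGTA the same medians were -0.04, -0.11, -0.05, 0.02 and -0.01, and in Cd14-/- cells -0.05, -0.26, -0.19, -0.05 and -0.18. Over all genes the wild type medians were between -0.06 and 0.02. Of the 34 genes, 17 were at their highest on the unstimulated array in wild type cells, beside 10 with EGTA and 12 in Cd14-/- cells. The share of all genes highest there was not counted, so these counts show nothing particular to the list.

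**Figure D1:**
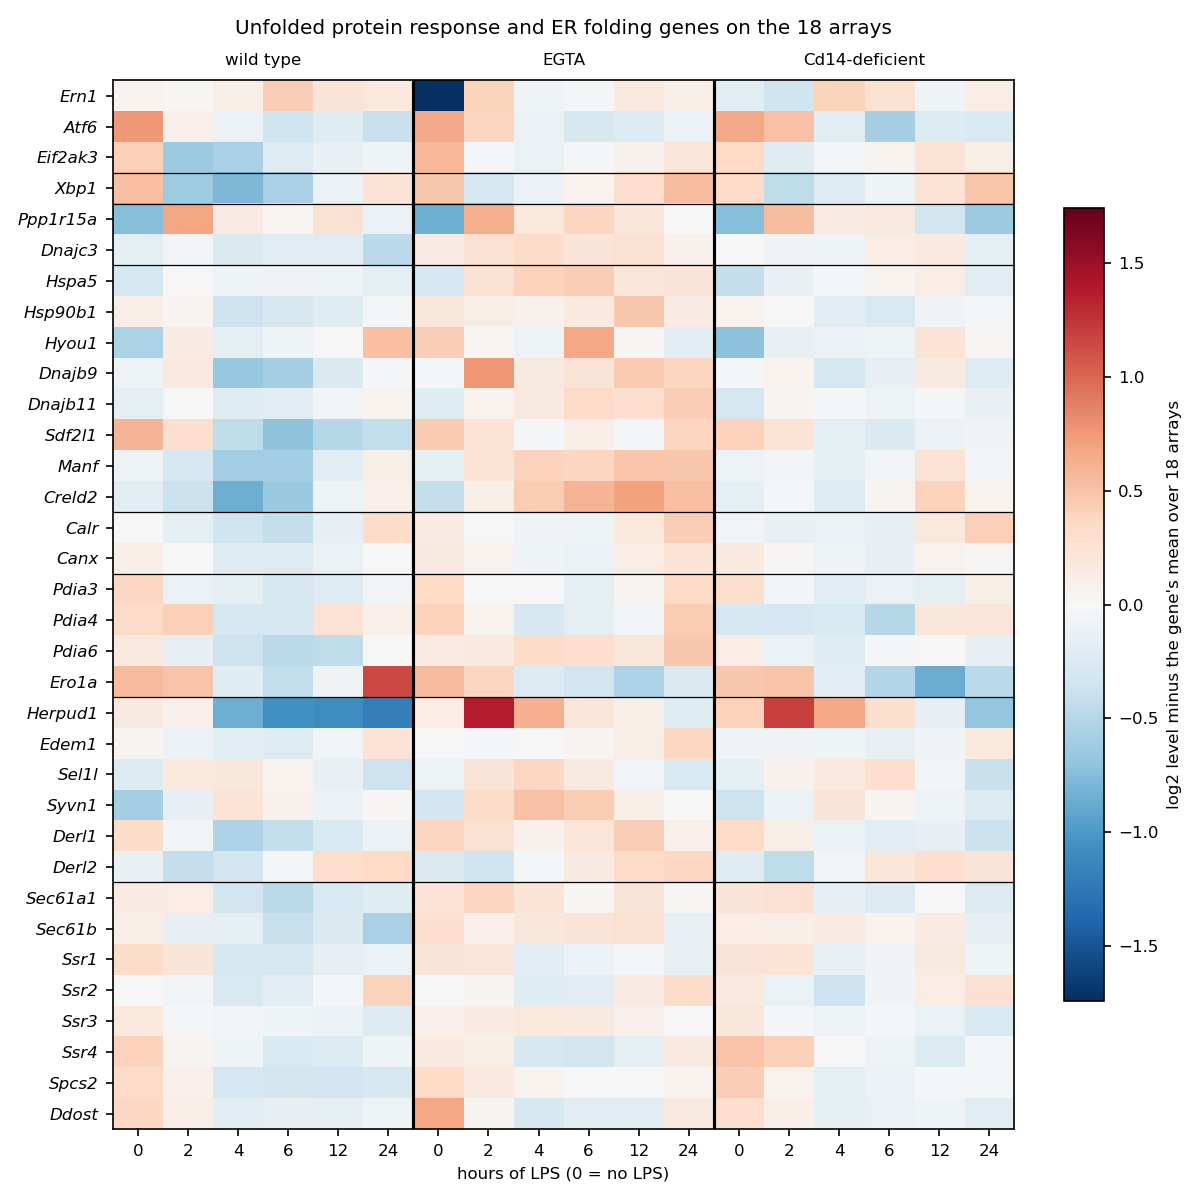
Log2 level of each of the 34 genes on each of the 18 arrays, minus the gene's mean over all arrays (colour, log2 units), with genes in rows grouped by role and hours of LPS in columns. The middle block (EGTA) is redder than the left one (wild type) at 2 to 24 h in most chaperone and ERAD rows, Herpud1 stands out in both right-hand blocks, and the darkest cell is Ern1 on the unstimulated EGTA array.

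Among the stress sensors, LPS was followed by lower Atf6 and Eif2ak3 mRNA in all 3 conditions. Atf6 levels were 8.18, 8.09 and 8.09 without LPS in wild type, EGTA and Cd14-/- cells, and at 6 h 7.08, 7.16 and 6.85. All 5 LPS arrays lay below the unstimulated array in each condition, and the mean change was -0.83 ± 0.10 (adjusted p = 2.29e-06). Eif2ak3 fell by 0.54 ± 0.09 (adjusted p = 1.22e-04). Both were also lower under the other scalings, at -0.78 and -1.19 for Atf6 and -0.47 and -0.88 for Eif2ak3. Ern1 was called higher by 0.75 ± 0.25 (adjusted p = 0.0169), with the unstimulated EGTA array at 4.93 against 6.73 and 6.47 in the other conditions. Without that array the change of Ern1 was 0.20 (adjusted p = 0.362), no longer past the test, and without further scaling it was 0.33 (adjusted p = 0.219).

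Ppp1r15a (GADD34), the phosphatase subunit that ends the translation block set by Eif2ak3, rose most. In wild type cells it was at 8.80 without LPS and at 10.23, 9.68, 9.57, 9.80 and 9.42 from 2 to 24 h. With EGTA it went from 8.69 to 10.17, 9.72, 9.91, 9.74 and 9.53, and in Cd14-/- cells from 8.80 to 10.07, 9.68, 9.71, 9.21 and 8.91. Every LPS array lay above every unstimulated one, and the mean rise was 0.93 ± 0.11 (adjusted p = 2.18e-06). Xbp1, by contrast, dropped at once and then climbed back: wild type levels were 12.54 without LPS and 11.40, 11.23, 11.46, 11.92 and 12.26 from 2 to 24 h. Its mean change was -0.53 ± 0.09 (adjusted p = 7.68e-05), or -0.19 (adjusted p = 0.167) under median centring. Of its 3 other probe sets, 2 gave changes of -0.65 and -0.61 and the dimmest 0.14. The probe sets give the amount of Xbp1 mRNA and no spliced share.

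Of the chaperones and ERAD factors, Hspa5 (BiP, the main ER Hsp70 chaperone) rose by 0.40 ± 0.06 (adjusted p = 6.13e-05) and Syvn1 (HRD1, an ERAD ubiquitin ligase) by 0.52 ± 0.08 (adjusted p = 3.50e-05). Dnajb11, a co-chaperone of Hspa5, Derl2, an ERAD channel factor, and Sel1l, the partner of Syvn1, rose by 0.27, 0.24 and 0.20. The genes that fell included Ero1a (-0.63 ± 0.19, adjusted p = 0.0105), the oxidase that recharges disulfide isomerases, Sdf2l1 (-0.58 ± 0.12), which works with Hspa5, and Ddost (-0.53 ± 0.08), a subunit of the complex that attaches N-glycans. The other 9 that fell were Spcs2, Ssr4, Derl1, Pdia3, Ssr1, Sec61a1, Sec61b, Ssr3 and Canx, by 0.17 to 0.44, although a dimmer probe set of Ssr4 gave 0.47. Under median centring the 4 genes called lower were Atf6, Eif2ak3, Sdf2l1 and Ddost, with Ero1a at -0.36 (adjusted p = 0.111). The call of Ero1a was also lost without the unstimulated EGTA or Cd14-/- array (highest adjusted p = 0.0641).

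At 2 h, 6 genes rose and 6 fell, where 15.7% of all genes rose and 23.7% fell. At 4 h the counts were 4 up and 17 down (24.9% and 34.2% of all genes) and at 6 h they were 6 up and 17 down (25.4% and 32.8%). They were 6 up and 14 down at 12 h (26.3% and 28.5%), then 8 up and 13 down at 24 h (25.4% and 25.0%). Ppp1r15a, Hspa5 and Syvn1 rose at all 5 times, and Atf6, Eif2ak3, Pdia3, Spcs2 and Ddost fell at all 5. Several of these single-time calls did not hold. That of Atf6 at 2 h was lost under median centring (adjusted p = 0.106), with no filter on dim genes, without the EGTA arrays and in 4 of the 22 fits without 1 array or time (wild type at 0 or 2 h, EGTA at 2 h, Cd14-/- at 0 h; highest adjusted p 0.162). Those of Eif2ak3 at 12 and 24 h were lost under median centring, without the EGTA arrays and in 2 fits each (wild type at 0 h for both, EGTA at 12 h, Cd14-/- at 24 h; highest 0.0836 and 0.105), and that of Spcs2 at 24 h under median centring (0.0982). Without further scaling Syvn1 was not called at 2 and 6 h (0.49 and 0.135), nor Ppp1r15a (0.439) and Hspa5 (0.617) at 24 h. Without the EGTA arrays Syvn1 at 2 h and Ppp1r15a and Hspa5 at 24 h were not called, nor Hspa5 at 24 h without the unstimulated EGTA array (0.065). These splits too moved with scaling. From 2 to 24 h, median centring gave 14, 9, 8, 8 and 8 genes up with 2, 5, 5, 4 and 3 down. No further scaling gave 2, 3, 2, 3 and 0 up with 5, 15, 17, 10 and 15 down. Without the Cd14-/- array at 12 h, the 20 genes called at that time became 13.

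Under LPS, EGTA-treated cells held more mRNA of most ER genes than wild type cells. Of the 34 genes, 22 were higher and 0 lower, while 7.05% of all tested genes were higher and 5.93% lower. The median change of the list was 0.25 (log2), beside 0.01 over all tested genes. Of the 22 genes, 20 were higher at all 5 times, and Sdf2l1 and Syvn1 at 4. The test that called them uses the scatter between these same times, so the steady direction is no further support. Without the EGTA arrays of 12 and 24 h, the 2 of lower RNA integrity, 16 were higher and 0 lower. The time block carried many of these calls, since 5 were called when time was left out of the fit.

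Herpud1, an ER membrane protein that organises the ERAD complex around Syvn1, changed most. Wild type levels were 9.70 without LPS and 9.64, 8.70, 8.49, 8.47 and 8.36 from 2 to 24 h, with most of the fall between 2 and 4 h. With EGTA they were 9.68 without LPS and 10.92, 10.18, 9.77, 9.65 and 9.34. The EGTA arrays at 2 to 12 h lay above all 5 wild type LPS arrays. EGTA minus wild type was 1.27, 1.48, 1.27, 1.18 and 0.98, against -0.03 without LPS. The mean change was 1.24 ± 0.11 (adjusted p = 3.10e-05), higher at 5 of 5 times. A dimmer probe set of the gene gave 1.18. On LPS itself the 2 probe sets differed. Wild type cells at 2 h minus no LPS gave 0.26 on the dimmer one and -0.06 on the one used. The mean LPS change over all conditions was 0.14 and -0.27.

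Among the ER chaperones 7 of 8 were higher. Creld2, a secreted stress protein with disulfide isomerase activity, stood at 9.08, 8.60, 8.81, 9.36 and 9.54 from 2 to 24 h in wild type cells and at 9.56, 9.89, 10.05, 10.15 and 9.98 with EGTA, so that the groups did not overlap. It was higher by 0.85 ± 0.12 (adjusted p = 8.46e-04). Manf, a secreted ER stress protein, stood at 11.12, 10.81, 10.82, 11.23 and 11.53 in wild type cells and at 11.65, 11.82, 11.79, 11.91 and 11.89 with EGTA, again without overlap. Its change was 0.71 ± 0.09 (adjusted p = 5.45e-04).

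For Dnajb9 (ERdj4, a co-chaperone of Hspa5), wild type levels were 10.78, 9.95, 10.03, 10.35 and 10.58 and EGTA levels 11.36, 10.76, 10.83, 11.07 and 10.98. EGTA was higher at each time, although the ranges touched, and the change was 0.66 ± 0.09 (adjusted p = 7.19e-04). For Hspa5 itself, the wild type levels of 12.94, 12.86, 12.88, 12.86 and 12.76 all lay below the EGTA levels of 13.20, 13.34, 13.36, 13.15 and 13.15. Its change was 0.38 ± 0.05 (adjusted p = 8.39e-04). Sdf2l1 (0.49, not past the test without the 6 h arrays, adjusted p = 0.0655, or without the EGTA arrays at 12 and 24 h, 0.0711), Hsp90b1 (GRP94, the ER Hsp90 chaperone; 0.36) and Dnajb11 (0.34) were higher as well. Hyou1, which exchanges nucleotide on Hspa5, was the exception at 0.01 ± 0.16 (adjusted p = 0.986), although its dimmer probe sets gave 0.59 and 0.43.

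**Figure D2:**
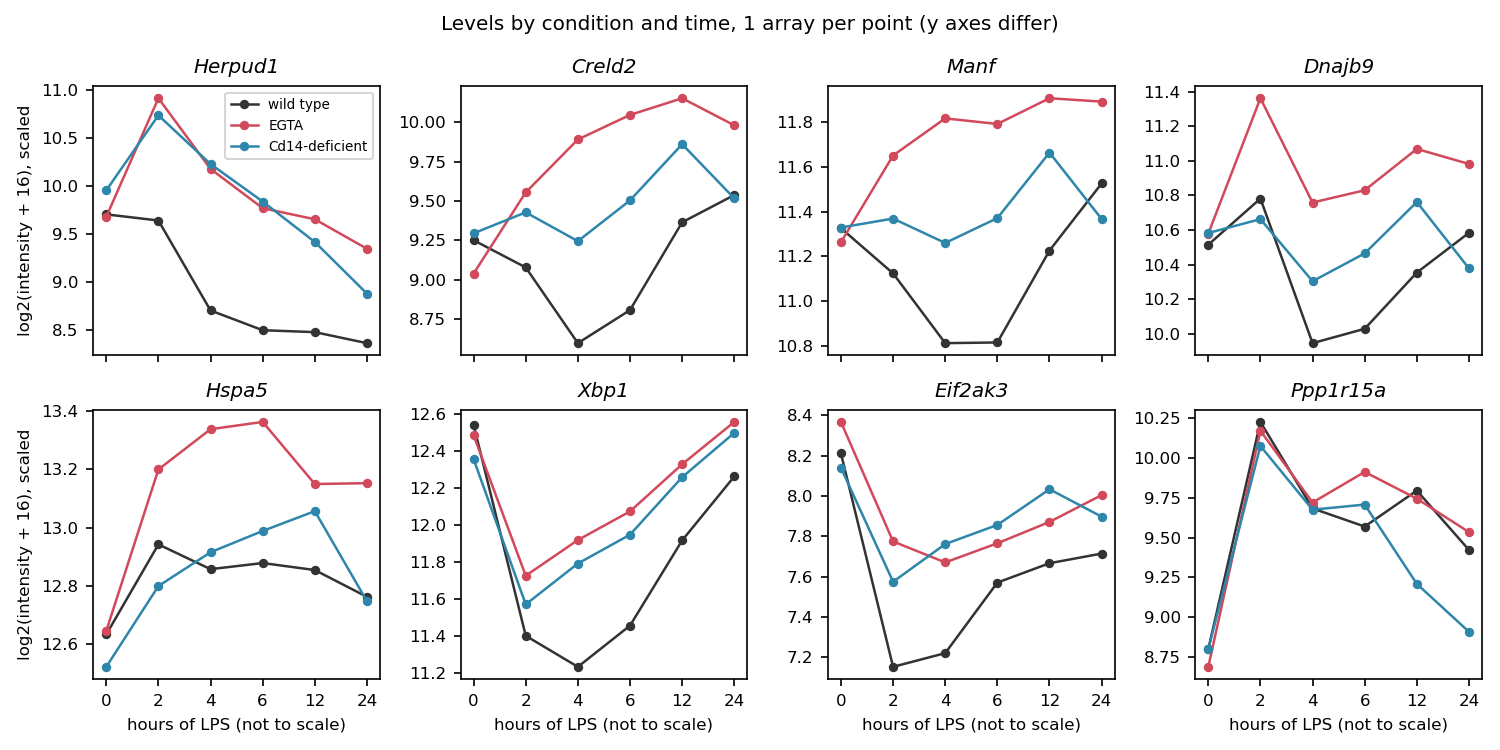
Scaled log2 level of 8 genes against hours of LPS (spacing not to scale) in wild type (black), EGTA (red) and Cd14-/- cells (blue), each point 1 array. For Herpud1 the red and blue lines lie above the black one at every LPS time. They are closest at 4 and 6 h and farthest apart at 24 h. For Hspa5 and Dnajb9 the red line is highest at every LPS time, and for Ppp1r15a all 3 lines peak at 2 h.

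Upstream of these targets, Xbp1 was higher with EGTA at 5 of 5 times, at 11.72, 11.92, 12.07, 12.33 and 12.56 where wild type cells had 11.40, 11.23, 11.46, 11.92 and 12.26. The change was 0.47 ± 0.06 (adjusted p = 5.17e-04). Of its other probe sets, 2 gave 0.45 and 0.53 and the dimmest -0.03. Of the 3 sensors, Eif2ak3 was higher by 0.35 ± 0.08 (adjusted p = 0.0145), a call lost without the wild type array at 4 h, all 4 h arrays or the EGTA arrays at 12 and 24 h (highest adjusted p without 1 array or time 0.0673). Ern1 differed by -0.09 ± 0.15 (95% interval -0.42 to 0.24) and Atf6 by 0.12 ± 0.10 (-0.09 to 0.33), neither past the test. Of the feedback factors, Dnajc3 (p58IPK, an inhibitor of Eif2ak3) was higher by 0.46 ± 0.07 (adjusted p = 0.00103) and Ppp1r15a differed by 0.08 ± 0.10 (adjusted p = 0.673; interval -0.14 to 0.30).

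Both lectin chaperones, which hold newly glycosylated proteins, were slightly higher, Calr (calreticulin) by 0.25 and Canx (calnexin) by 0.16. Other probe sets of Calr gave 0.23 and 0.22, while those of Canx gave -0.08 and 0.19, all above the array median on 18 of 18 arrays. In disulfide formation 2 of 4 enzymes were higher: Pdia6 by 0.57 ± 0.09 (adjusted p = 0.00113) and Pdia3 by 0.21. Pdia6 levels were 10.59, 10.37, 10.26, 10.28 and 10.72 in wild type cells and 10.89, 11.05, 11.02, 10.93 and 11.20 with EGTA, again without overlap. Pdia4 (-0.03) and Ero1a (-0.38 ± 0.20, adjusted p = 0.241) did not pass the test. In ERAD 4 of 6 were higher: beside Herpud1, Derl1, a channel factor, by 0.49 ± 0.09 (adjusted p = 0.00333), Syvn1 by 0.26 and Edem1, which selects misfolded glycoproteins, by 0.16. The dimmer probe sets of Derl1 gave 0.315, 0.115 and 0.388, all above the array median on 18 of 18 arrays. Sel1l (0.09) and Derl2 (0.11) did not pass. Without LPS, on 1 array each, Syvn1 already lay 0.255 above wild type with EGTA, Dnajc3 0.302 and Calr 0.145. There 17 of the 34 genes were above 0.

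Of the 8 genes of the protein channel and its neighbours 4 were higher. Sec61a1 and Sec61b, subunits of the channel, were higher by 0.41 ± 0.06 and 0.43 ± 0.05 (adjusted p = 0.00113 and 2.05e-04), Spcs2, of the signal peptidase, by 0.29, and Ssr3, of the complex beside the channel, by 0.21. The dimmer probe sets of Sec61a1 gave 0.145 to 0.389. The remaining subunits Ssr1, Ssr2 and Ssr4 and the glycosylation factor Ddost lay between 0.00 and 0.07 and did not pass. Under median centring 19 of the 34 genes were higher and without further scaling 18, with 0 lower in either.

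**Figure D3:**
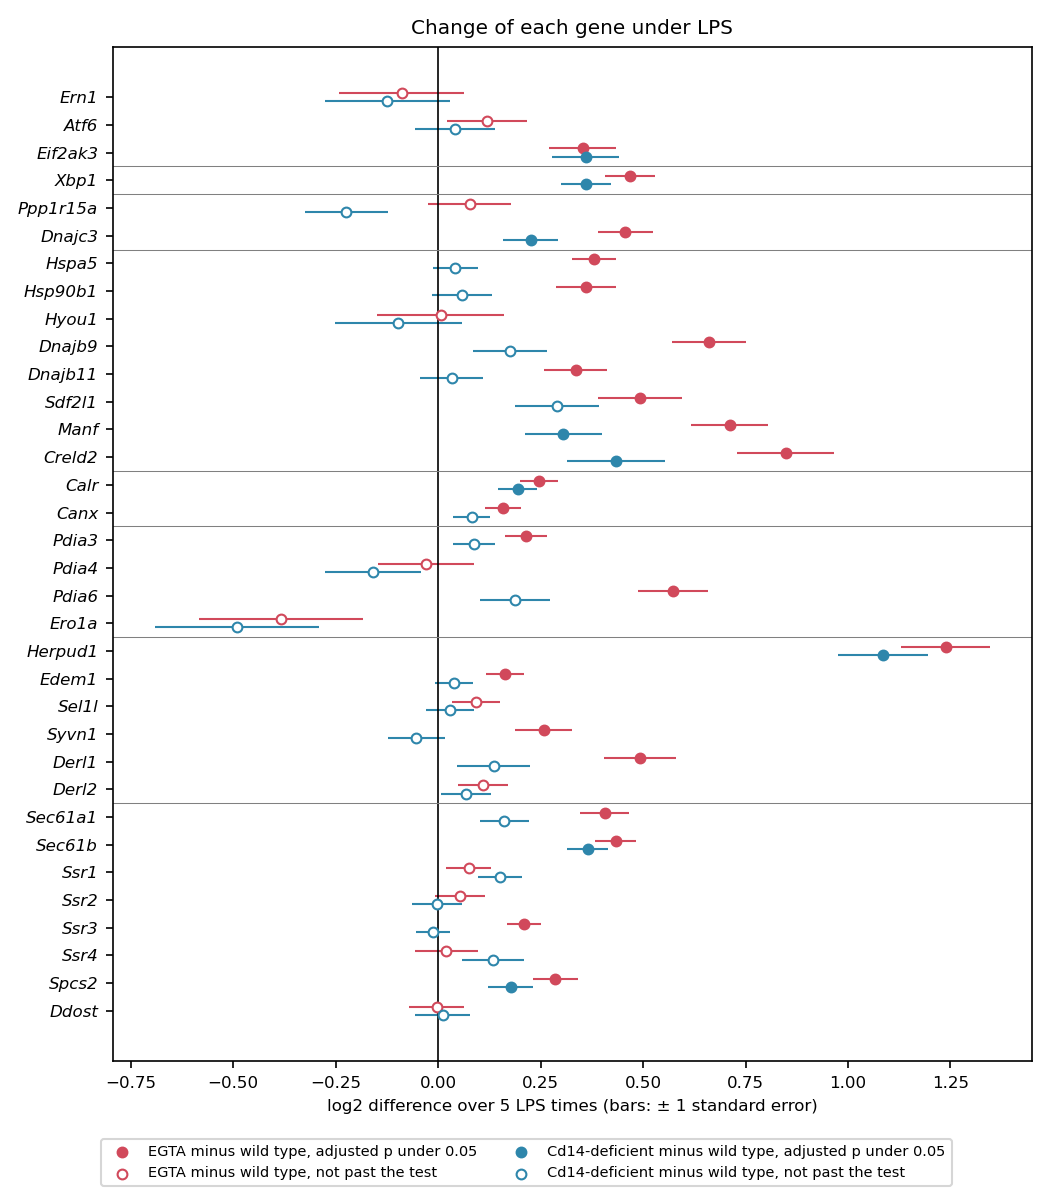
Log2 difference from wild type over the 5 LPS times for each of the 34 genes, grouped by role, with EGTA in red and Cd14-/- in blue and bars of 1 standard error either side. Filled points (adjusted p under 0.05) number 22 for EGTA and 9 for Cd14-/-, all to the right of 0, with Herpud1 farthest right in both colours.

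The starts of these genes were searched for the ER stress elements, short sequences through which Atf6 and Xbp1 are known to act and which were first described in promoters of such genes, so that their presence in known targets is no finding of these data. RefSeq windows (GRCm38.p6) from 250 bases before to 50 after the annotated start were at hand for 28 of the 34 genes. Both strands were read for the element ERSE, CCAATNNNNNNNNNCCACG, for ERSE-II, ATTGGNCCACG, and for the UPRE core, TGACGTGG, where N is any base. ERSE stood in 8 of the 28 windows and in 0.137% of the windows of 27025 genes, ERSE-II in 2 of the 28 and in 0.0444%, and the UPRE core in 0 of the 28 and in 0.714%. All 10 genes with an ERSE or ERSE-II (Calr, Canx, Creld2, Dnajb11, Dnajc3, Herpud1, Hsp90b1, Hspa5, Pdia6 and Syvn1) were among the 19 windowed genes that were higher with EGTA, and 0 of the other 9 had one. The letters are a description of the window and do not show that a factor bound there.

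The windows of the gene that changed most, of 5 with an ERSE and, for contrast, of Dnajb9, which was higher with EGTA but held none of the 3 motifs, are printed 5′ to 3′ on the gene's strand with matches in capitals. Herpud1 lies at chr8:94386179-94386478 (plus strand), Hspa5 at chr2:34771840-34772139 (plus), Hsp90b1 at chr10:86705395-86705694 (minus), Creld2 at chr15:88819396-88819695 (plus), Pdia6 at chr12:17266339-17266638 (plus), Dnajc3 at chr14:118937682-118937981 (plus) and Dnajb9 at chr12:44210019-44210318 (minus).
Herpud1: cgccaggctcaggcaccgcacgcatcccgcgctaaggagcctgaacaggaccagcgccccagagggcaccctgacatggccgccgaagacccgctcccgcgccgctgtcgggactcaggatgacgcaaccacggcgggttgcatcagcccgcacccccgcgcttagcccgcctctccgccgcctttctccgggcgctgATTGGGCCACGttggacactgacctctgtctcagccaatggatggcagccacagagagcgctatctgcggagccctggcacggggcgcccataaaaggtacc
Hspa5: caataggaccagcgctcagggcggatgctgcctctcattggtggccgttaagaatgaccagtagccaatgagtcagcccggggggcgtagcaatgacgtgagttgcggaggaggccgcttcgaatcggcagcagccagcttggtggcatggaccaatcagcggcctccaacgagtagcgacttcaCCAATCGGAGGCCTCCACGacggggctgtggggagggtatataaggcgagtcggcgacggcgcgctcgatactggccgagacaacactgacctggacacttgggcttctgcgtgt
Hsp90b1: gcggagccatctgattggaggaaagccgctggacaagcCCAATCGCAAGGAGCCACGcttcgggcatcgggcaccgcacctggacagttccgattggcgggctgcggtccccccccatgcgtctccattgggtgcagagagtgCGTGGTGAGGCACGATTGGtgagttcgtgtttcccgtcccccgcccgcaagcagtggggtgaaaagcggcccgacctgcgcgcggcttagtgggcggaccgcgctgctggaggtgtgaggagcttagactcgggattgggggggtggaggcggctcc
Creld2: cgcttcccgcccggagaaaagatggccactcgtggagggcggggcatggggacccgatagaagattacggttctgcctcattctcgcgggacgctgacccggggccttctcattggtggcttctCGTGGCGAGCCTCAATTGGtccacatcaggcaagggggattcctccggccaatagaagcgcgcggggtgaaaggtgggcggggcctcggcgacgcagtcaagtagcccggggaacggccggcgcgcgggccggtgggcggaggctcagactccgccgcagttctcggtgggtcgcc
Pdia6: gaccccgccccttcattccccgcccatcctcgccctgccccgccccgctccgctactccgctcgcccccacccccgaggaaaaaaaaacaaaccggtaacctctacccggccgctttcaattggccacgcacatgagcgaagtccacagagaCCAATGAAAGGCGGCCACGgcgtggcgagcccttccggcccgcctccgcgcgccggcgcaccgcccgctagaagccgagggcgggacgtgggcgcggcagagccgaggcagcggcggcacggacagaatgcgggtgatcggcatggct
Dnajc3: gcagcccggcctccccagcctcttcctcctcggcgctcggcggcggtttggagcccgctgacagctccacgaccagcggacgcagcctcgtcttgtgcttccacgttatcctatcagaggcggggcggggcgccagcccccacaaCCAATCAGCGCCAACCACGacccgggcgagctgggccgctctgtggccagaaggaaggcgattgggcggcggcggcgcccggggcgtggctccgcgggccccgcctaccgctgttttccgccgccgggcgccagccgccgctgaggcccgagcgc
Dnajb9: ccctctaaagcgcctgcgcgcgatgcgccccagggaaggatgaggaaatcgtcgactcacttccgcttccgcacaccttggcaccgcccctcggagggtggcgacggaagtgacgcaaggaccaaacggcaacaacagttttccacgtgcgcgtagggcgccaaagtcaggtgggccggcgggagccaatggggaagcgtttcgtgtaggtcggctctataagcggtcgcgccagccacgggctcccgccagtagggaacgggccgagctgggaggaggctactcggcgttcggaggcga
Herpud1 carries its ERSE-II from base -52, Hspa5 its ERSE from -65, Pdia6 from -98 and Dnajc3 from -105, all on the strand of the gene. In Creld2 the element is on the opposite strand, from -126, and Hsp90b1 has 1 on each strand, from -212 and -107.

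Cd14-/- cells were compared with the same wild type arrays. Here 9 of the 34 genes were higher and 0 lower, where 16.2% of all tested genes were higher and 12.1% lower. The median change of the list was 0.09, beside 0.03 over all tested genes. The count was 5 without the wild type array at 4 h or without all 4 h arrays, 4 without the 6 h or the 12 h arrays, 6 (5 up and 1 down) under median centring and 3 (2 up and 1 down) without further scaling. Herpud1 and Eif2ak3 were those of the 9 still called without further scaling. With time left out of the fit 0 were called.

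Herpud1 again changed most. Its levels in Cd14-/- cells were 9.95 without LPS and 10.74, 10.23, 9.84, 9.41 and 8.88 from 2 to 24 h, above wild type by 1.10, 1.53, 1.34, 0.94 and 0.52, and by 0.25 without LPS. The mean change was 1.09 ± 0.11 (adjusted p = 1.94e-05), and its second probe set gave 1.00. Xbp1 was higher at 5 of 5 times, at 11.57, 11.79, 11.95, 12.26 and 12.50, by 0.36 ± 0.06 (adjusted p = 9.74e-04). Eif2ak3 levels were 7.58, 7.76, 7.86, 8.03 and 7.90 against 7.15, 7.22, 7.57, 7.67 and 7.72 in wild type cells, a change of 0.36 ± 0.08 (adjusted p = 0.00596).

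Creld2 was higher by 0.43 ± 0.12 (adjusted p = 0.0162), with levels of 9.43, 9.24, 9.50, 9.86 and 9.52 that crossed below wild type at 24 h. Sec61b was higher by 0.37 ± 0.05 (adjusted p = 2.40e-04), at 12.42, 12.45, 12.37, 12.46 and 12.18 where wild type cells had 12.16, 12.15, 11.93, 12.06 and 11.75. Manf (0.31), Dnajc3 (0.23), Calr (0.19) and Spcs2 (0.18) made up the rest. Manf, Dnajc3, Calr and Spcs2 lost their calls under median centring. Of the 20 fits that left out 1 array or time, Manf was not called in 10 and Dnajc3 in 10, each including those without the wild type arrays at 4, 6 or 12 h or the Cd14-/- arrays at 6 or 12 h (highest adjusted p 0.127 and 0.11). The others for Manf left out the Cd14-/- array at 2 or 4 h or all arrays at 4, 6 or 12 h, and for Dnajc3 the wild type array at 24 h or all arrays at 4, 6, 12 or 24 h. Creld2 was not called without the wild type array at 4 or 6 h or all arrays at 4, 6 or 12 h (highest 0.0707), nor Calr without all arrays at 6 or 12 h (0.0554).

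The main chaperones did not pass the test in this comparison. For Hspa5 the Cd14-/- levels of 12.80, 12.92, 12.99, 13.06 and 12.75 overlapped the wild type ones, and the difference was 0.04 ± 0.05 (adjusted p = 0.597; 95% interval -0.07 to 0.16). Hsp90b1 differed by 0.06 ± 0.07 (interval -0.10 to 0.22), Dnajb11 by 0.03 ± 0.08 (-0.13 to 0.20) and Dnajb9 by 0.18 ± 0.09 (-0.02 to 0.37). None of the 4 disulfide enzymes was called, and 2 of them had an unadjusted p under 0.05. Ppp1r15a differed by -0.22 ± 0.10 (adjusted p = 0.116), with the larger gaps at 12 h (-0.59) and 24 h (-0.52).

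The EGTA and Cd14-/- comparisons share the wild type arrays, so their likeness is no independent result, and both conditions were therefore also compared directly. Against EGTA, Cd14-/- cells were lower in 13 of the 34 genes and higher in 0, where 13.8% of all tested genes were lower and 15.9% higher. Each of the 13 was lower at all 5 times, which a test on the scatter between these times favours. The median change of the list was -0.13, beside 0.03 over all tested genes. Without further scaling, which moved the median of all genes to -0.16, 23 were lower, and without a time block 1.

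Among the 13 were 6 of the 8 chaperones. Dnajb9 was lower by 0.49 ± 0.09 (adjusted p = 0.00167), at 10.66, 10.30, 10.46, 10.76 and 10.38 in Cd14-/- cells. Hspa5 differed by -0.34 ± 0.05 (adjusted p = 5.45e-04), Creld2 by -0.41 ± 0.12 (0.0197), Manf by -0.41 ± 0.09 (0.00632), Hsp90b1 by -0.30 and Dnajb11 by -0.30. Pdia6 (-0.39 ± 0.09, adjusted p = 0.00472) and the ERAD factors Derl1 (-0.36 ± 0.09) and Syvn1 (-0.31 ± 0.07) were lower too, as were Ppp1r15a (-0.30), Sec61a1 (-0.25), Dnajc3 (-0.23) and Ssr3 (-0.22). Averaged over its probe sets, the other of which lay above the array median on 0 arrays, Pdia6 differed by -0.23 (adjusted p = 0.0873) and was not called. A dimmer probe set of Sec61a1 stood above wild type by 0.389 with EGTA and by 0.396 in Cd14-/- cells. In its other probe sets the EGTA value was the higher. The calls of Ppp1r15a and Derl1 were lost without the EGTA arrays at 12 and 24 h. Ppp1r15a was also lost with no filter on dim genes (0.0603), with no intensity trend (0.0542) and in 10 of the 20 fits without 1 array or time (wild type at 2 or 4 h, EGTA at 6, 12 or 24 h, Cd14-/- at 12 or 24 h, all arrays at 6, 12 or 24 h; highest adjusted p 0.138). Creld2 was lost in 6 (EGTA at 4 or 6 h, Cd14-/- at 24 h, all arrays at 4, 6 or 12 h; 0.0709), Derl1 without the 12 h arrays (0.0543) and Hsp90b1 without the 6 h arrays (0.0556).

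For Xbp1, the 3 sensors and the ERAD factor Herpud1 the difference between Cd14-/- and EGTA cells did not pass. Herpud1 differed by -0.15 ± 0.11 (adjusted p = 0.323; 95% interval -0.39 to 0.08), Xbp1 by -0.11 ± 0.06 (0.211; -0.24 to 0.03), Eif2ak3 by 0.01 ± 0.08 (0.961; -0.17 to 0.19), Atf6 by -0.08 ± 0.10 and Ern1 by -0.04 ± 0.15. Without further scaling Herpud1 (-0.38) and Xbp1 (-0.30) were called lower in Cd14-/- cells.

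In time, the excess of the ER genes was small at 2 h and largest at 6 h in both comparisons. With EGTA the median difference from wild type ran 0.14, 0.29, 0.34, 0.26 and 0.25 from 2 to 24 h, with 27, 29, 31, 28 and 28 of the 34 genes above 0. In Cd14-/- cells it ran 0.01, 0.16, 0.19, 0.17 and -0.02, with 19, 27, 28, 25 and 14 genes above 0. Over all genes these medians lay between 0.00 and 0.03.

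**Figure D4:**
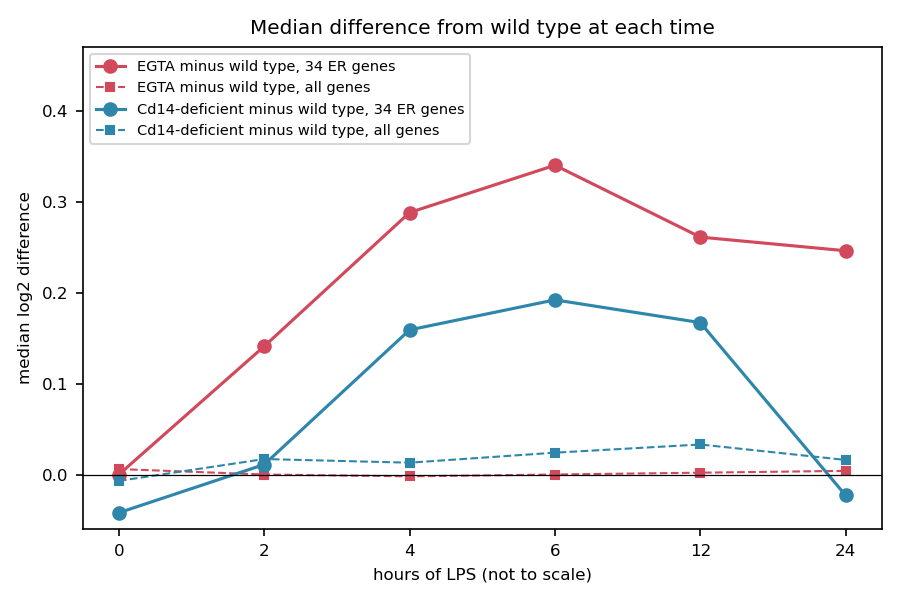
Median log2 difference from wild type over the 34 ER genes (solid) and over all 12394 genes (dashed) at each time, for EGTA (red) and Cd14-/- (blue). The red solid line starts at 0.00 without LPS, peaks at 0.34 at 6 h and stays at 0.25 at 24 h, and the blue one peaks at 0.19 and is back at -0.02 at 24 h.

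A test of early (2, 4 and 6 h) against late (12 and 24 h) differences called 0 of the 34 genes in either comparison with limma, and 3 in each had an unadjusted p under 0.05. Of all tested genes, 0% were called in either direction for EGTA, and 0.0135% up and 0.0271% down for Cd14-/-. Ero1a had the largest estimates, 0.92 ± 0.23 with EGTA (adjusted p = 0.143) and 1.19 ± 0.23 in Cd14-/- cells (0.068), early minus late. Its 24 h levels were 11.41 in wild type, 10.00 with EGTA and 9.78 in Cd14-/- cells, the wild type array being above all 17 others. The corresponding value for Herpud1 was 0.59 ± 0.15 in Cd14-/- cells (adjusted p = 0.142). Without the wild type array at 12 h, or all arrays at 12 h, each test called 1 gene.

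Whether LPS changed a gene more in one condition than in wild type was tested against the lone unstimulated array of each, assumed to vary like the LPS arrays. For EGTA, 2 of the 34 genes were called higher, Herpud1 by 1.26 ± 0.27 (adjusted p = 0.0348) and Ern1 (adjusted p = 0.0427), and 0 lower, where 0.878% of all genes were higher and 0.798% lower. For Ern1 the EGTA minus wild type difference was -0.09 over the LPS times and -1.80 without LPS, and its signal was above the array median on 10 of 18 arrays. The value for Ern1 thus rests on the unstimulated EGTA array, where its level of 4.93 was below the array median of 6.75, and gives no size of an induction. Between 0 and 3 genes were called as single arrays or times were left out, with 0 without the wild type arrays at 6 or 12 h, the EGTA or Cd14-/- array at 12 h, or all arrays at 4, 6 or 12 h, 1 in 7 other cases and 3 without the wild type array at 24 h. Under median centring, which moved the median of all genes to 0.32, 22 were called. For Cd14-/- 0 were called with limma and 4 had an unadjusted p under 0.05, where 0.0399% of all genes were higher and 0.106% lower, with Herpud1 at 0.84 ± 0.27 (adjusted p = 0.452).

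Other genes of the pathway, from lists made for this comparison, moved in both directions. Of 16 tested UPR regulators, 3 were higher with EGTA and 3 lower, where 7.05% of all tested genes were higher and 5.93% lower. Trib3, a pseudokinase induced by Atf4 and Ddit3, stood at 6.53, 5.88, 5.88, 6.64 and 7.47 in wild type cells, at 7.95, 7.86, 7.65, 7.90 and 7.70 with EGTA, without overlap, and at 6.08, 5.62, 6.12, 6.22 and 6.81 in Cd14-/- cells. In wild type and Cd14-/- cells these levels were below the array median of 6.75 from 2 to 12 h, so the sizes of its changes are uncertain. Trib3 was higher with EGTA by 1.33 ± 0.20 (adjusted p = 0.00127) and lower in Cd14-/- than in EGTA cells by 1.64 ± 0.20 (8.43e-05). Ddit3 (CHOP, a stress transcription factor) was higher with EGTA by 0.66 ± 0.14 (adjusted p = 0.00909) and lower in Cd14-/- than in EGTA cells by 0.97 ± 0.14 (2.60e-04). Atf4, named after its values were seen, followed at 0.46 ± 0.11 and -0.36 ± 0.11. Atf3, another stress factor, went the other way, by -0.81 ± 0.07 with EGTA and -0.90 ± 0.07 in Cd14-/- cells against wild type (adjusted p = 1.99e-05 and 1.67e-06). Creb3 (-0.23) and Wfs1 (-0.41), also named after their values were seen, were the other two lower with EGTA.

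Among other ER folding genes, 4 of 24 were higher with EGTA and 3 lower, including the prolyl isomerases Ppib (0.22) and Fkbp11 (-0.42) and the thioredoxin family member Txndc11 (0.53). Of 19 other ERAD genes 2 were higher, Selenos (0.38) and Vcp (0.17), the ATPase that pulls proteins out of the ER, and 0 lower. Of 22 other genes of protein entry 5 were higher, among them Stt3a (0.27), Serp1 (0.29) and Tram1 (0.26), and 0 lower. ER to Golgi transport had 1 of 29 higher (Copa, a coat protein, 0.20) and ER calcium genes 1 of 14 (Nucb2, 0.47), with 0 lower in both. Of 18 cytosolic heat shock genes 0 were higher and 2 lower, the near-identical Hspa1a (-0.69) and Hspa1b (-0.72), whose signals may not be separable. The shares higher for ERAD (10.5%), ER calcium (7.14%) and ER to Golgi transport (3.45%) lay near or below the 7.05% of all tested genes. They say little about those lists.

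In Cd14-/- cells against wild type, the counts higher and lower were 1 and 3 of 16 UPR regulators, 4 and 2 of 24 ER folding genes, 2 and 1 of 19 for ERAD, 7 and 0 of 22 for protein entry, 4 and 0 of 29 for ER to Golgi transport, 2 and 2 of 14 for ER calcium and 5 and 4 of 18 for cytosolic heat shock. With 16.2% of all tested genes higher and 12.1% lower, several of these shares lie near the background, and they say little about the lists. Beside Atf3, the first by p in these lists were Dad1 (0.33) of the N-glycan complex, Dnajc1 (-0.65), Vcp (0.26), Arcn1 (0.30), a coat protein, the ER calcium pump Atp2a3 (0.61) and the cytosolic chaperone Hspa4 (0.39). Against EGTA cells, the Cd14-/- counts were 1 and 4, 2 and 2, 1 and 3, 3 and 1, 0 and 3, 2 and 1, and 5 and 0 in the same order of lists, where 15.9% of all tested genes were higher and 13.8% lower.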

How the data were processed

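RNA of 18 dendritic cell cultures was labelled and hybridised to Affymetrix arrays of 22690 probe sets. The deposited values are linear intensities, which the authors made with MAS5, per the submitters' processing notes; neither its version nor its scaling target is stated there. Trimmed means (2% off each end) were unequal, so values were quantile-normalised after adding 16, and changes on this log2 scale understate those of dim genes. Of the probe sets, 20393 named 1 gene, 691 several and 1606 none in the array's annotation, and only the first were used, which gave 12394 genes by the brightest probe set.

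Tests used limma 3.58.1 in R 4.3.3 (lmFit, eBayes with an intensity trend), with p-values adjusted over all tested genes. The condition fit had 8 residual degrees of freedom. The number of arrays limits the precision. The genes and lists were chosen with earlier results of these data known. Named in full were the 3 sensors, Xbp1, Hspa5, Herpud1, Ppp1r15a, Dnajb9 and, per comparison, up to 8 listed genes with the largest called changes; of other lists up to 3 genes with the smallest p. Python 3.11.15 with pandas 2.3.3 searched the RefSeq promoter windows. Scripts were tested on simulated data. Alternatives were the scaling, the added constant, the filter, the choice of probe set, the trend, the time block and leaving out arrays.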

Additional observations from a re-analysis of the deposited data

Results flagged for a closer look

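Differences in LPS induction between EGTA and wild type cells passed the interaction test for 2 genes. Herpud1 differed by 1.264 ± 0.267 (log2; limma adjusted p = 0.0348) and was higher with EGTA at 5 of 5 LPS times, and its call was lost in 9 of the 21 fits without 1 array or time (highest adjusted p = 0.0926). Ern1 passed the same test with a fitted value of 1.714 ± 0.377 (adjusted p = 0.0427), but this value rests on the unstimulated EGTA array, where Ern1 lay at 4.93, below the array median of 6.75 and near the 4 to which the added constant sets a signal of 0. It is no measure of the size of an induction. Its call was lost in 14 of the 21 fits (highest adjusted p = 0.104), and EGTA and wild type cells differed by -0.09 over the LPS times. Pdia6 was above its unstimulated level at all 5 LPS times with EGTA and below it at all 5 in wild type cells, a difference of 0.603 in induction that this count does not test and for which the interaction gave an adjusted p of 0.169.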

How the results depend on the processing

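Limits: every condition and time had 1 array, so the error is the scatter between times, and directions of LPS effects depend on scaling. Leaving out the time block left 5 genes called for EGTA against wild type, 0 for Cd14-/- against wild type and 1 for Cd14-/- against EGTA. No further scaling gave 3 for Cd14-/- against wild type, 23 for Cd14-/- against EGTA, 7 and 13 for LPS at 2 and 12 h, and 1 for induction with EGTA. Median centring gave 13, 12 and 11 for LPS at 6, 12 and 24 h and 22 for induction with EGTA, where a constant of 64 and a filter on the mean level each gave 1 and no filter 0. Pdia3 at 2 h of LPS turned to 0.062 (adjusted p = 0.71) under median centring; the cause was not tested. Leaving out single arrays or times gave 16 to 22 genes for EGTA against wild type, 4 to 12 for Cd14-/- against wild type, 9 to 14 for Cd14-/- against EGTA, 0 to 1 for early against late in either, 13 to 21 for LPS at 12 h and 0 to 3 for induction with EGTA.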
